A study of Homo sapiens with 12 samples.

Results

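The 10 genes described here belong to the integrin family and were followed through the mRNA-seq of human glioblastoma cells. They are the alpha subunits ITGA4, ITGA5, ITGA6, ITGAV and ITGAX, and the beta subunits ITGB1, ITGB2, ITGB3, ITGB5 and ITGB8. They are 10 of the 58174 gene identifiers in the deposited tables and 10 of the 26 integrin subunit genes, and each symbol matched a single identifier. These genes were chosen by their measured levels and by their differences between the groups of this same experiment. Their levels and differences are therefore given as a description. Calls from the fit over all genes are counted for them, but no p-value is given and the counts support nothing. Tests are reported for 121 other genes of integrin adhesion, which were listed with earlier results of these data known.

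The cells were the established glioblastoma lines U87 (U-87 MG) and U118 (U-118 MG). In each line, 3 libraries came from cells labelled sensitive, called control cells here, and 3 from cells labelled resistant, called aggregation cells here. All cells descended from a CD133-CD15- fraction depleted of both stem cell surface markers on magnetic columns, and were grown in DMEM/F12 with serum and BMP2, a factor that favours glial differentiation. The aggregation cells had been kept in temozolomide (TMZ), a DNA-alkylating drug, at 50 μM, and grew out as rare colonies from survivors of the drug, so that each resistant culture may stem from few founder cells. Nothing in the labels states that the 3 libraries of a group came from separate cultures, so p-values measure only the spread between these libraries, which may be technical.

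Integrins are receptors made of an alpha and a beta chain that together span the plasma membrane and tie the extracellular matrix to the actin cytoskeleton. The alpha chain largely sets the ligand, and the beta chain carries most of the contacts with talin, kindlins and the adhesion kinases inside the cell. ITGB1 pairs with many alpha chains, ITGB5 and ITGB8 pair with ITGAV, ITGB3 pairs with ITGAV or, in platelets, with ITGA2B, and ITGB2 is the leukocyte beta chain that pairs with ITGAX. In glioblastoma, integrins that bind fibronectin, vitronectin and laminin are studied for their part in invasion and in the growth of stem-like cells.

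Before the subunits are described, the libraries need 1 remark. Over 16382 expressed genes, the U118 aggregation libraries had Spearman correlations of 0.808 to 0.839 with the U118 control libraries but of 0.895 to 0.913 with the U87 libraries, whereas U118 control and U87 libraries reached 0.783 to 0.831. The U118 aggregation libraries were thus closer to the other cell line than to their own controls, and every U118 difference below rests on them. Whether a difference of cell identity takes part in the U118 differences was not tested. Levels are in TPM, a unit scaled by transcript length and by the total of the library. Between 13270 and 15290 genes reached 1 TPM in a library, and the share of mitochondrially encoded transcripts ran from 7.42% to 29.9%. This share was 16.9%, 12.9% and 16.5% in U87 control and 22.2%, 23.6% and 23.7% in U87 aggregation cells, without overlap. In U118 it was 7.42%, 8.55% and 19.7% in control and 13.2%, 29.9% and 26.1% in aggregation cells, with overlap. Of 8 genes listed as glioma line markers, VIM and CD44 were at 4425 TPM or more and 311 TPM or more in all 12 libraries. NES and SOX9 also reached 1 TPM in all 12. The astrocyte marker GFAP stayed at or below 0.693 TPM, S100B at or below 0.281 TPM and SOX2 at or below 0.550 TPM, with SOX2 listed at 0 in U87. OLIG2 was at 1.45 TPM or more in U87 and at most 1.05 TPM in U118.

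**Figure D1:**
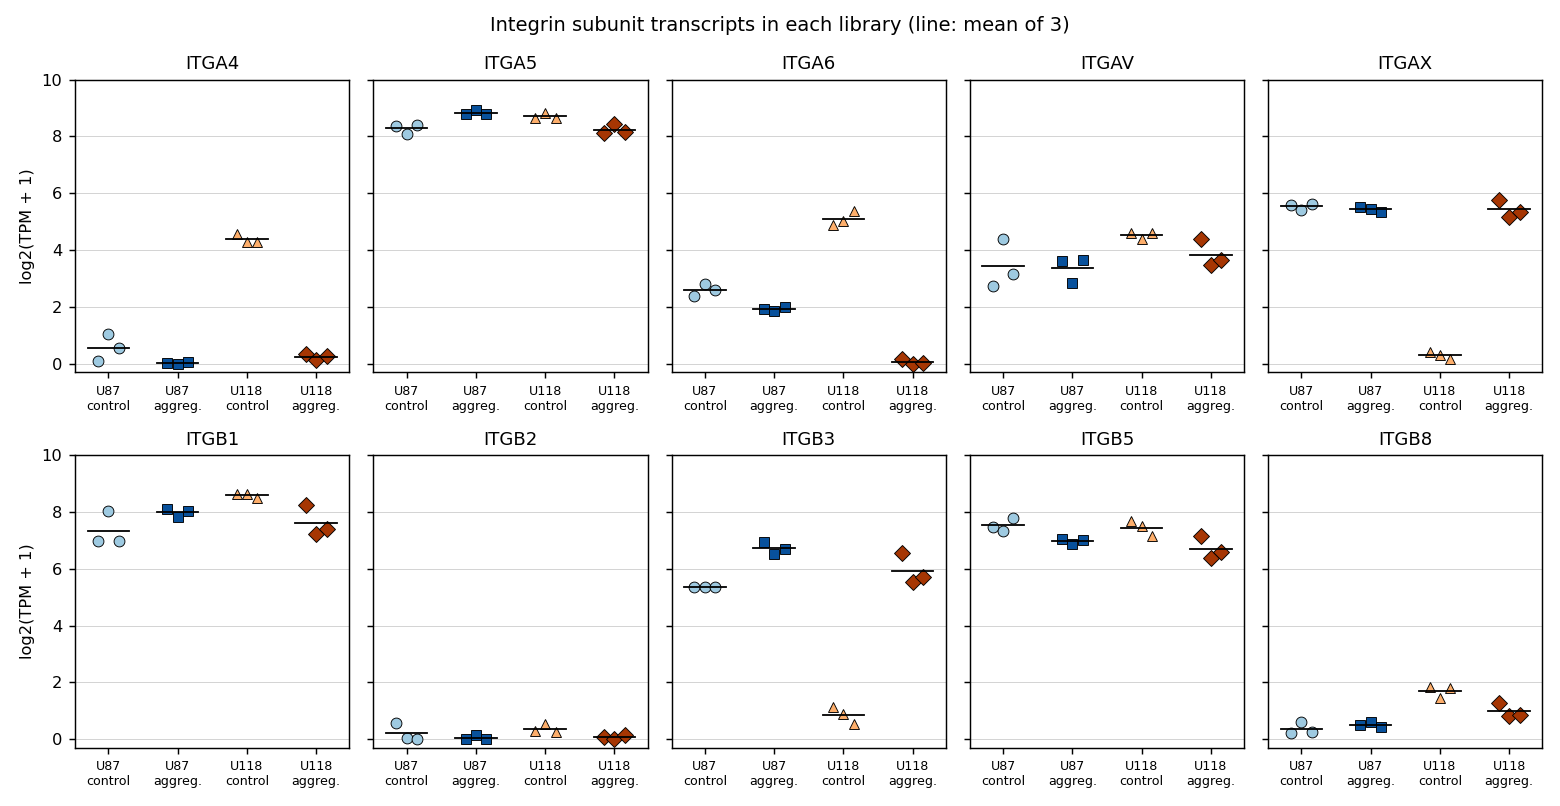
Expression of the 10 integrin subunits as log2(TPM + 1), with 1 symbol for each of the 12 libraries and a line at the mean of the 3 libraries of a group. ITGAX and ITGB3 were near 0 in U118 control libraries and at U87-like levels in U118 aggregation libraries, ITGA4 and ITGA6 showed the opposite order, and ITGB2 stayed under 0.5 TPM everywhere.

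The comparison of aggregation with control cells within a line asks which subunits differ once cells have grown out under TMZ. Differences are given as the log2 fold change on the log2(TPM + 1) scale, which understates changes of genes near 0, with its standard error (SE) from limma. A gene was called where its adjusted p was under 0.05 and its log2 fold change at least 1 in size, among genes that reached 1 TPM in 3 or more of the 6 libraries of the line. In U87, 7 of the 10 subunits passed this filter (all but ITGA4, ITGB2 and ITGB8), 1 was called higher (ITGB3) and 0 were called lower, where 3.03% of all 13845 genes tested were called higher and 7.79% lower. In U118, 9 passed (all but ITGB2), 2 were called higher (ITGAX and ITGB3) and 2 lower (ITGA4 and ITGA6), where 8.64% of all 15527 genes tested were called higher and 26.6% lower. Since the subunits were chosen on these contrasts, nothing is read from their counts. The 3 aggregation and 3 control values did not overlap for 4 of the 7 subunits that passed in U87, which 53.4% of all genes tested there showed, and for 7 of the 9 in U118, which 58.6% showed. The median log2 fold change over all genes tested was -0.24 in U87 and -0.52 in U118, and median-ratio scaling of the libraries moved it to -0.06 in U118 and to nearly 0 in U87. A subunit that differs by about these amounts thus moved as the typical gene did.

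ITGB3, the beta chain of the vitronectin receptor, was the subunit that stood higher in aggregation cells of both lines. The gene lies on chromosome 17 (GRCh38, 47253846 to 47311816, plus strand). In U87 control cells it measured 39.8, 40.5 and 40.0 TPM, and in U87 aggregation cells 122, 91.8 and 104 TPM. In U118 control cells it measured 1.18, 0.853 and 0.467 TPM, against 92.5, 45.4 and 52.1 TPM in aggregation cells. In bulk RNA, here and for each gene below, fewer cells that express a gene and less of its RNA per cell cannot be told apart. The groups did not overlap in either line, and the 3 U87 control libraries were nearly equal, while aggregation replicate 1 was the highest of its group in each line. The log2 fold change was 1.37 (SE 0.11) in U87 and 5.08 (SE 0.31) in U118, or 4.78 in U118 without aggregation replicate 1. The aggregation means were 106 ± 15.02 TPM in U87 and 63.3 ± 25.5 TPM in U118 (SD, n = 3). An antisense transcript within the same locus, THCAT158, averaged 0.921 and 4.49 TPM in U87 control and aggregation cells. In U118 it was listed at 0 in the control libraries and averaged 1.55 TPM in aggregation cells. The strand setting of the counting is not given in the sources used here, so reads of ITGB3 and of this partner cannot be told apart. AC068234.1, annotated as protein-coding, overlaps ITGB3 on the same strand, where strand would not separate the reads. AC068234.1 averaged 0.336 and 1.05 TPM in U87 control and aggregation cells, and 0 and 0.531 TPM in those of U118.

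ITGAX, which encodes CD11c and is best known as a marker of dendritic cells and macrophages, was nearly absent from U118 control cells and abundant in the other 3 groups. It measured 0.327, 0.230 and 0.123 TPM in U118 control cells and 53.6, 35.1 and 39.6 TPM in U118 aggregation cells. In U87 the gene was already at 47.5, 41.8 and 47.9 TPM in control cells and at 45.2, 42.3 and 40.0 TPM in aggregation cells. The U118 groups were far apart, with a log2 fold change of 5.14 (SE 0.25), while the U87 groups overlapped with a log2 fold change of -0.10 (SE 0.10), or 0.17 with median-ratio scaling. The mean of the U118 aggregation libraries, 42.8 ± 9.66 TPM, lay beside those of U87 control (45.7 ± 3.40 TPM) and U87 aggregation cells (42.5 ± 2.62 TPM; SD, n = 3).

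ITGB2, the beta chain with which the ITGAX protein is known to form its receptor, did not accompany it. ITGB2 measured 0.489, 0.0220 and 0 TPM in U87 control, 0, 0.111 and 0 TPM in U87 aggregation, 0.221, 0.452 and 0.203 TPM in U118 control, and 0.0440, 0 and 0.114 TPM in U118 aggregation cells. ITGAX transcripts were thus abundant in 9 libraries in which ITGB2 stayed under 0.5 TPM. Leukocyte markers were read beside this pair. PTPRC, which encodes the pan-leukocyte protein CD45, was at most 0.0689 TPM, and TYROBP and AIF1 were listed at 0 in all 12 libraries. Of 14 leukocyte markers, LCP1, CORO1A and CSF1R were at 1 TPM or more in all 3 libraries of every group, and LAPTM5 and FCER1G joined them in U118 aggregation cells. The summed level of the 14 markers ran from 53.8 to 64.5 TPM in U118 control and from 80.7 to 103 TPM in U118 aggregation cells, and from 112 to 150 TPM and 25.2 to 27.6 TPM in the U87 groups, most of it from LCP1. CSF1R, the receptor for macrophage colony-stimulating factor, averaged 1.39 ± 0.0470 TPM in U118 control and 11.5 ± 3.15 TPM in U118 aggregation cells (SD, n = 3). CORO1A went the other way, from 5.30 ± 0.981 to 2.08 ± 0.299 TPM in U118 and from 4.20 ± 0.195 to 1.27 ± 0.219 TPM in U87. None of 7 platelet markers, read because ITGB3 is abundant in platelets, reached 1 TPM in all 3 libraries of any group.

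The ITGAX locus on chromosome 16 (31355134 to 31382997, plus strand) is flanked by further alpha chains of the ITGB2 family. ITGAD, 10315 bases further along the chromosome, measured 0.256, 0.430 and 0.253 TPM in U118 control and 33.2, 20.0 and 18.5 TPM in U118 aggregation cells. ITGAM, which encodes CD11b and lies 22242 bases on the other side, was at 0, 0.108 and 0.175 TPM and at 1.45, 0.659 and 1.32 TPM in the same groups. All 3 neighbouring genes were thus higher in U118 aggregation cells, without overlap of the groups. In U87, where ITGAX was abundant, ITGAD was at most 0.164 TPM and ITGAM at most 0.174 TPM. Of the neighbours of ITGB3, MYL4 overlapped between the U118 groups (0.0942, 0 and 0.194 against 0.167, 0.370 and 0 TPM). EFCAB13, 11474 bases from ITGB3, was scarce but higher in aggregation cells without overlap, at 0.387, 0.0570 and 0.152 against 2.36, 1.10 and 0.934 TPM in U118 and at 0.760, 1.11 and 0.461 against 2.18, 2.42 and 2.54 TPM in U87.

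ITGA4 and ITGA6 went the other way in U118. ITGA4, the alpha chain that binds fibronectin and the vascular adhesion molecule VCAM1, fell from 22.5, 18.6 and 18.4 TPM in U118 control cells to 0.271, 0.0820 and 0.200 TPM in aggregation cells, with a log2 fold change of -4.13 (SE 0.22). ITGA6, the laminin-binding alpha chain used as a marker of glioblastoma stem-like cells, fell from 28.6, 31.3 and 40.7 TPM to 0.108, 0 and 0.00494 TPM, with a log2 fold change of -5.04 (SE 0.23). Both genes were near the floor in all 3 U118 aggregation libraries, so these values depend on the pseudocount and were -6.19 and -8.00 with a pseudocount of 0.1. In U87, ITGA4 was close to 0 in both groups, at 0.0507, 1.05 and 0.456 TPM and at 0.0241, 0 and 0.0353 TPM. ITGA6 was at 4.21, 6.04 and 5.09 TPM in U87 control and 2.75, 2.63 and 2.93 TPM in U87 aggregation cells, again lower without overlap, with a log2 fold change of -0.69 (SE 0.16). The gene next to ITGA6, DLX2, which lies 324454 bases away, was also lower in U118 aggregation cells (20.1, 20.0 and 27.1 against 4.63, 3.23 and 3.15 TPM), whereas PDK1, 49091 bases away on the other side, overlapped between the groups. CERKL, 489 bases from ITGA4, overlapped as well (2.83, 2.21 and 3.79 against 3.59, 1.02 and 0.815 TPM).

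Because these 2 genes showed the largest falls, the start regions of both are shown, each 250 bases before to 50 bases after the annotated start (RefSeq, GRCh38.p14). ITGA4 is at chr2:181457136-181457435 and ITGA6 at chr2:172427086-172427385, both on the plus strand and both printed 5′ to 3′. Capitals mark every match on either strand. The motifs searched were ACGTG and its relative GCGTG, the core bound by hypoxia-inducible factors, the AP-1 site written TGANTCA, the GC box written GGGCGG and the TATA box written TATAAA.
ITGA4: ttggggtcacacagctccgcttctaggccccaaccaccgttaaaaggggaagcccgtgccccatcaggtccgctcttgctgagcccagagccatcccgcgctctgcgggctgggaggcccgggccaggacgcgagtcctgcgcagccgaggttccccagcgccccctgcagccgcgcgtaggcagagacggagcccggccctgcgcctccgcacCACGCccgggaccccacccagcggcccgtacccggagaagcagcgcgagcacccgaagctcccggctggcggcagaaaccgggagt
ITGA6: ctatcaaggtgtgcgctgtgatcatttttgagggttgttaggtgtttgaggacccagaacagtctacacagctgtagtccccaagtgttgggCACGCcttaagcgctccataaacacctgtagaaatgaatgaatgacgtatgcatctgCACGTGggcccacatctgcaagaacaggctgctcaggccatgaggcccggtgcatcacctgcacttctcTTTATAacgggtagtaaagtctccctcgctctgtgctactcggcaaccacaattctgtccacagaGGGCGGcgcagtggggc
The ITGA4 window held 31 CG dinucleotides and, of the motifs, GCGTG alone, read on the minus strand as CACGC. The ITGA6 window held 11 CG dinucleotides, 1 GCGTG, the palindrome CACGTG that contains ACGTG on both strands, 1 GGGCGG and, on the minus strand, 1 TATAAA. Of 27305 windows of this length, 21.6% held ACGTG, 36.3% GCGTG, 7.76% TGANTCA, 44.6% GGGCGG and 11.95% TATAAA, and the median window held 14 CG dinucleotides. Such windows were at hand for 7 of the 10 subunits, which held 11 to 39 CG dinucleotides. ITGAX, ITGB2 and ITGB3 were not among them. A match is a string of letters and not evidence of binding.

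The remaining alpha chains differed less. ITGA5, the fibronectin receptor chain that pairs with ITGB1, was the highest of the 10 subunits in every group by its mean. It measured 327, 272 and 339 TPM in U87 control and 447, 487 and 444 TPM in U87 aggregation cells, and 398, 458 and 404 TPM in U118 control and 281, 347 and 284 TPM in U118 aggregation cells. The groups did not overlap in either line and lay in opposite directions, with log2 fold changes of 0.56 (SE 0.10) in U87 and -0.47 (SE 0.20) in U118. The U118 value was as large as the median gene's and became 0.05 with median-ratio scaling, so its direction depends on the scaling, while the U87 value became 0.84. ITGAV, the alpha chain shared by the ITGB3, ITGB5 and ITGB8 receptors, measured 5.63, 20.0 and 7.86 TPM in U87 control, 11.3, 6.22 and 11.5 TPM in U87 aggregation, 23.1, 19.8 and 23.0 TPM in U118 control and 20.0, 10.2 and 11.4 TPM in U118 aggregation cells. Its groups overlapped in both lines, with log2 fold changes of -0.05 (SE 0.44) and -0.68 (SE 0.28). The sign in U87 was not stable, since the value was 0.44 without control replicate 2, 0.21 without aggregation replicate 2, 0.21 with median-ratio scaling and 0.08 without mitochondrially encoded genes. With median-ratio scaling the U118 value was -0.19.

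ITGB1, the most widely shared beta chain, measured 124, 261 and 127 TPM in U87 control and 275, 226 and 261 TPM in U87 aggregation cells. Control replicate 2 lay within the range of the aggregation libraries, so the groups overlapped (log2 fold change 0.66, SE 0.28), and the value without that library was 1.01, with which ITGB1 would also be called. In U118, ITGB1 was at 394, 401 and 365 TPM in control and at 301, 148 and 168 TPM in aggregation cells, lower without overlap. The U118 log2 fold change was -0.98 (SE 0.28), or -0.46 with median-ratio scaling and -0.78 when the mitochondrially encoded genes were left out of the total. Without aggregation replicate 1 it was -1.29. In U118, ITGB1 would also be called lower without that library or without control replicate 3. A divergent non-coding neighbour that overlaps it on the opposite strand, ITGB1-DT, averaged 1.14 TPM in U118 control and 23.8 TPM in U118 aggregation cells.

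ITGB5, another vitronectin receptor chain, was lower in aggregation cells of U87 without overlap, at 176, 162 and 221 TPM against 132, 116 and 130 TPM (log2 fold change -0.55, SE 0.12, or -0.27 with median-ratio scaling). In U118 it measured 204, 182 and 142 TPM against 142, 82.3 and 96.6 TPM, with the highest aggregation value just above the lowest control value (log2 fold change -0.73, SE 0.26). ITGB8, which binds latent TGF-beta together with ITGAV, was at a low level in every group. It measured 2.58, 1.73 and 2.53 TPM in U118 control and 1.42, 0.775 and 0.803 TPM in U118 aggregation cells, lower without overlap (log2 fold change -0.72, SE 0.22, or -1.14 with a pseudocount of 0.1, with which ITGB8 would meet the size asked of a call). In U87 its 6 values lay between 0.169 and 0.526 TPM and overlapped. With median-ratio scaling the U118 values were -0.22 for ITGB5 and -0.42 for ITGB8.

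Within a group, the order of levels is comparable because TPM is scaled by transcript length. In U87 control cells the order by mean was ITGA5, ITGB5, ITGB1, ITGAX, ITGB3, ITGAV and ITGA6, in which ITGB5 and ITGB1, and ITGAV and ITGA6, overlapped between libraries. In U87 aggregation cells ITGB1 passed ITGB5, and ITGB3 rose beside ITGB5, whose range it overlapped. In U118 control cells ITGA6 followed ITGA5, ITGB1 and ITGB5, and ITGB3 and ITGAX were among the last 3. In U118 aggregation cells ITGB5, ITGB3 and ITGAX overlapped in turn behind ITGB1, and ITGA6 was last.

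The beta chains were also set against each other as shares of the summed TPM of all 8 beta genes, a ratio within a library that no scaling of the library alters. ITGB3 took 10.2% ± 1.47 of the beta sum in U87 control and 21.6% ± 1.12 in U87 aggregation cells, and 0.144% ± 0.0518 in U118 control and 16.6% ± 0.476 in U118 aggregation cells (SD, n = 3). The groups did not overlap in either line, and the 3 aggregation libraries of U118 were closely alike in this share although their ITGB3 levels ranged from 45.4 to 92.5 TPM. ITGB5 took 47.6% ± 11.3 in U87 control and 25.9% ± 0.952 in U87 aggregation cells, and 30.8% ± 3.05 and 28.7% ± 2.09 in the U118 groups. ITGB1 took 41.6% ± 12.6 and 52.1% ± 0.394 in the U87 groups, with U87 control replicate 2 alone at 56.0%, and 68.2% ± 2.99 and 53.8% ± 1.72 in the U118 groups. ITGB3 thus took its place in the pool beside a smaller share of ITGB5 in U87 and of ITGB1 in U118. These shares describe transcripts, and receptors at the cell surface were not measured.

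**Figure D2:**
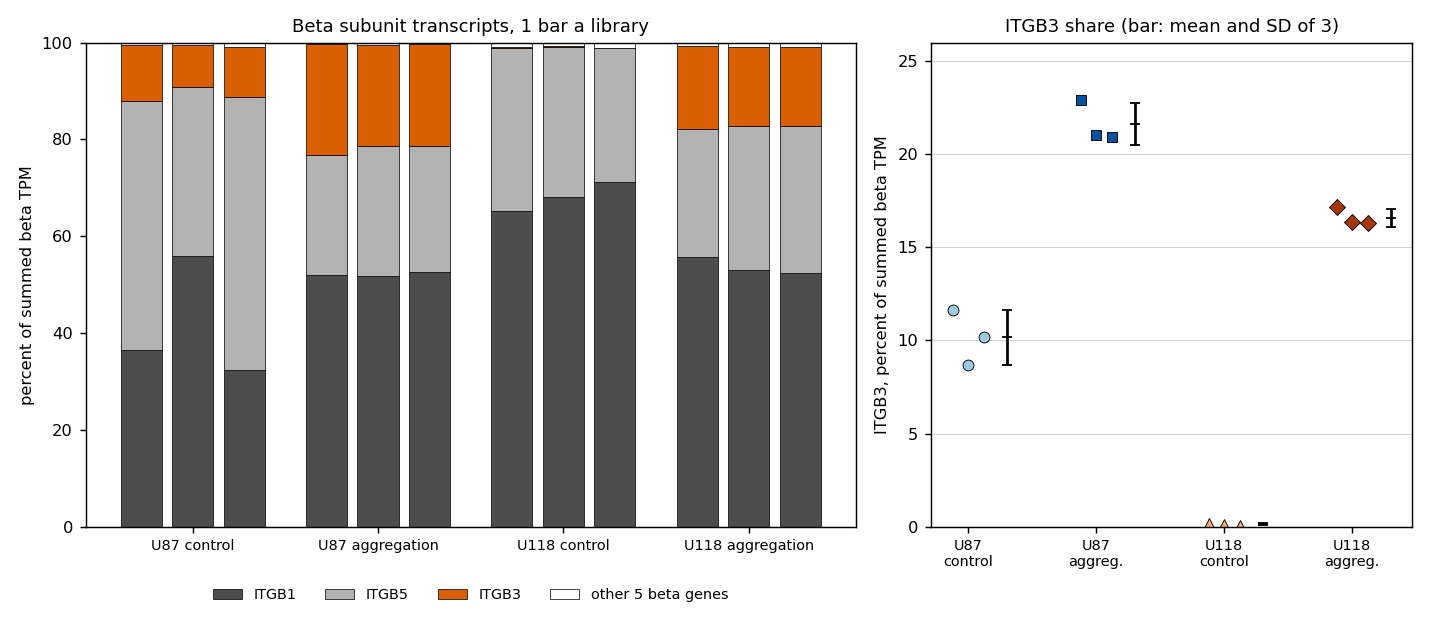
Left, the percent of the summed beta subunit TPM taken by ITGB1, ITGB5, ITGB3 and the other 5 beta genes, 1 bar for each of the 12 libraries. Right, the ITGB3 share of each library with mean and SD of 3, from 0.144% in U118 control to 21.6% in U87 aggregation cells.

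The summed alpha transcripts exceeded the summed beta transcripts in all groups, by a ratio of 4.42 ± 0.874 in U87 control, 3.85 ± 0.302 in U87 aggregation, 1.61 ± 0.0816 in U118 control and 2.57 ± 0.644 in U118 aggregation cells (SD, n = 3). ITGA3, a laminin-binding chain that is not among the 10, made up 66.2% ± 2.07, 64.3% ± 1.48, 34.6% ± 2.31 and 48.0% ± 1.01 of the alpha sum in the same order. ITGA5 took 18.0% ± 1.45 and 24.6% ± 1.76 in the U87 groups and 46.1% ± 2.69 and 33.5% ± 6.01 in the U118 groups. ITGAX took no more than 5.15% in any library.

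The other 16 subunits give the setting of the 10. In U87, 7 were tested and 0 were called by limma, with 1 at an unadjusted p under 0.05 and a median log2 fold change of 0.07 where all genes tested had -0.24. That 1 gene, ITGAE, was lower without overlap (log2 fold change -0.98, SE 0.16, adjusted p = 0.00311). It fell just short of the size asked of a call, and its value was -0.71 with median-ratio scaling. In U118, 9 were tested, 2 were called higher and 2 lower, with a median of -0.39 where all genes tested had -0.52. Over all genes tested, 3.03% were called higher and 7.79% lower in U87, and 8.64% and 26.6% in U118. ITGAD had a log2 fold change of 4.20 (SE 0.27, limma adjusted p = 4.2e-06) and ITGA7, a laminin receptor chain of muscle, of 2.30 (SE 0.36, adjusted p = 0.000874). ITGA10 and ITGA11, both collagen-binding chains, fell by 2.24 (SE 0.34, adjusted p = 0.000782) and 1.54 (SE 0.31, adjusted p = 0.00348) on the log2 scale. ITGA3 was at 334, 351 and 266 TPM in U118 control and 503, 420 and 401 TPM in U118 aggregation cells without being called (log2 fold change 0.48, SE 0.22, adjusted p = 0.0904, or 0.996 with median-ratio scaling), and the collagen-binding ITGA2 overlapped in U118 (-0.39, SE 0.30, adjusted p = 0.300).

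The 10 subunits of each U118 aggregation library differed on average by 2.22 to 2.39 log2 units from the U118 control means and by 0.53 to 0.75 from the U87 means. Over the other 16 subunits the same distances were 0.90 to 0.94 and 0.93 to 1.15, and over 16382 expressed genes 0.83 to 1.08 and 0.58 to 0.74. The 10 were chosen on the U118 contrast, so their large distance from the U118 control is a property of the choice. Beside this, U87 expressed ITGAX and ITGB3 and had little ITGA4 in both of its groups, while its ITGA6 lay between the U118 groups.

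**Figure D3:**
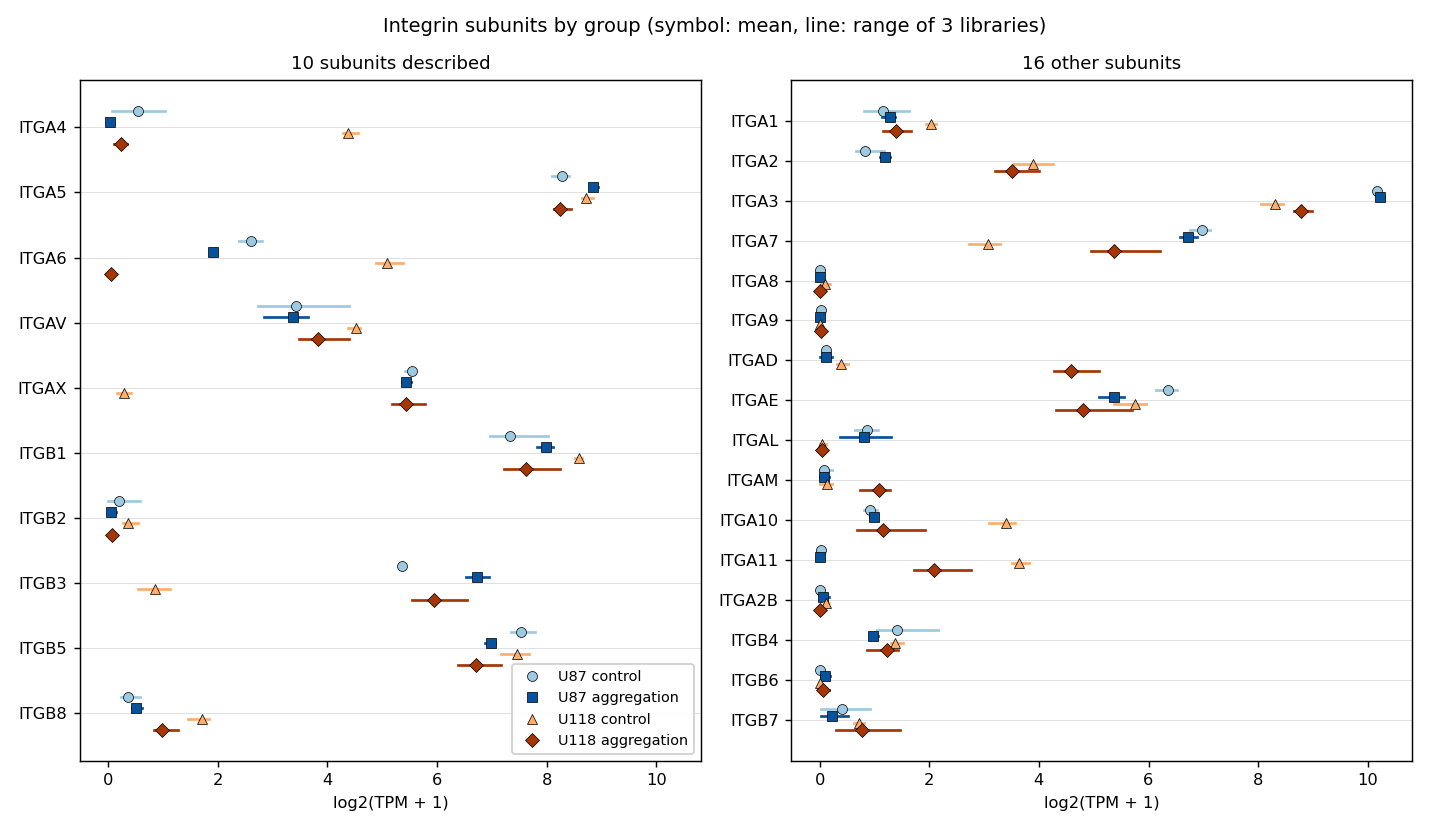
Mean log2(TPM + 1) of each subunit in the 4 groups, with a line for the range of the 3 libraries, for the 10 subunits described (left) and the 16 others (right). In U118 aggregation cells ITGA4, ITGAX and ITGB3 lay near the U87 symbols and ITGA6 lay below them, whereas ITGAD, at 18.5 TPM or more, had no counterpart in the other 3 groups.

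The partners of the integrins were read from 7 lists of 121 genes, which hold none of the 10 subunits. In U87, 95 were tested, 7 were called higher and 7 lower, with a median log2 fold change of -0.15 beside -0.24 over all genes tested. In U118, 98 were tested, 12 were called higher and 26 lower, with a median of -0.39 beside -0.52. Over all genes tested, 3.03% were called higher and 7.79% lower in U87, and 8.64% and 26.6% in U118. The counts of each list below stand beside these same shares. Median-ratio scaling changed the split to 9 higher and 2 lower in U87 and to 20 higher and 19 lower in U118. The change differed between the lines, by the interaction term of a limma fit over all 12 libraries, for 44 of 101 genes (18 higher and 26 lower in U118), where 30.5% of all 16382 genes tested did. The lists were drawn up with earlier results of these data known, so no excess is read from this count. Of the 7 genes called in both lines, 1 was called in the same direction and 6 in opposite directions.

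The matrix ligands held the largest of these differences. FN1, the fibronectin bound by the receptors of ITGA4, ITGA5 and ITGAV, rose from 74.0, 68.2 and 77.9 TPM to 973, 785 and 909 TPM in U87 (log2 fold change 3.58, SE 0.10, limma adjusted p = 8.59e-06). In U118 it fell from 2754, 3309 and 3879 TPM to 334, 78.4 and 83.8 TPM (log2 fold change -4.65, SE 0.50, adjusted p = 9.28e-05). POSTN, a matrix protein bound by ITGAV receptors, moved likewise, by 2.28 (SE 0.23, adjusted p = 0.000551) in U87 and by -5.59 (SE 0.28, adjusted p = 1.11e-06) in U118. It measured 0.147, 0.917 and 0.114 against 5.98, 4.99 and 5.70 TPM in U87. In U118 it measured 52.4, 35.5 and 65.9 against 0, 0.155 and 0 TPM. One group of each line was thus near the floor, so both values depend on the pseudocount. FBN1 and EDIL3, named after their values were seen, were the other ligands called higher in U87 and lower in U118. TGFBI rose in U118 (4.005, SE 0.40, adjusted p = 5.39e-05), as did the osteopontin gene SPP1, a ligand of the ITGB3 receptor (2.21, SE 0.29, adjusted p = 0.000314). In U87 TGFBI was also higher without overlap (0.78, SE 0.08, adjusted p = 0.000551), short of the size asked of a call. With median-ratio scaling its U87 value was 1.05 and it would be called there. VTN, the vitronectin gene, was at most 1.61 TPM in all 12 libraries. Of the 30 ligands, 20 were tested in U87 with 5 higher and 2 lower (median 0.34), the lower being JAM3 and CCN1, whose call was lost with median-ratio scaling, and 22 in U118 with 4 higher and 10 lower (median -0.84). Fibroblast markers moved beside these matrix genes in U118, where the sum of 8 markers ran from 927 to 1307 TPM in control and from 196 to 437 TPM in aggregation cells, and from 199 to 205 TPM and 368 to 440 TPM in the U87 groups. In U118, 7 of the 8 markers were at 1 TPM or more in all 3 control libraries and 5 in all 3 aggregation libraries, and their part in the result was not tested.

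Inside the cell, the regulators that bind beta chain tails were mixed. FERMT3, the kindlin of blood cells, fell in U87 (-1.15, SE 0.12, limma adjusted p = 0.000606) and rose in U118 (1.48, SE 0.23, adjusted p = 0.000901), while FERMT2, the kindlin of most adherent cells, fell in U118 from 85.1, 71.4 and 70.6 TPM to 15.2, 9.59 and 10.6 TPM (-2.60, SE 0.23, adjusted p = 3.02e-05). FERMT1 fell in U118 too (-1.36, SE 0.24, adjusted p = 0.00177). With median-ratio scaling the U87 call of FERMT3 (-0.89) and the U118 call of FERMT1 (-0.95) were lost. APBB1IP, which recruits talin to integrins, was listed at 0 in the 3 U118 control libraries and measured 9.18, 7.88 and 8.67 TPM in aggregation cells, against 15.4 TPM or more in every U87 library. TLN1, the talin gene, was higher without overlap in both lines but was not called (0.49, SE 0.09, adjusted p = 0.0066 in U87 and 0.94, SE 0.20, adjusted p = 0.00374 in U118). In U87, the adaptor gene DAB2 rose (1.20, SE 0.10, adjusted p = 0.000242). Of the 18 regulators, 17 were tested in each line, with 1 higher and 2 lower in U87 (median -0.21) and 2 higher and 3 lower in U118 (median -0.52).

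The kinases and adaptors of adhesions likewise differed by line. PTK2B, the relative of focal adhesion kinase, fell in U87 from 13.5, 13.0 and 14.9 TPM to 5.13, 3.91 and 3.52 TPM (-1.52, SE 0.16, limma adjusted p = 0.000615) and rose in U118 from 2.10, 2.23 and 2.47 TPM to 11.8, 9.82 and 10.4 TPM (1.83, SE 0.22, adjusted p = 0.000168). PTK2, focal adhesion kinase itself, fell in U118 (-1.08, SE 0.21, adjusted p = 0.00263), a call that was lost with median-ratio scaling (-0.57). SRC rose in U118 (1.92, SE 0.22, adjusted p = 0.000147), whereas its relative YES1 (-1.74, SE 0.23, adjusted p = 0.000313) and the caveolin gene CAV1 (-2.50, SE 0.39, adjusted p = 0.000821) fell. In U87 the engulfment adaptor gene ELMO1 fell (-1.16, SE 0.17, adjusted p = 0.00204), a call also lost with that scaling (-0.91). Of 15 such genes, 14 were tested in U87 with 0 higher and 2 lower (median -0.41) and 13 in U118 with 2 higher and 4 lower (median 0.16). Of 18 scaffold genes, 16 were tested in each line, with 0 called in U87 by limma (9 at an unadjusted p under 0.05, median -0.31) and 4 lower in U118 (median -0.27), among them TGFB1I1 (-2.01, SE 0.21, adjusted p = 8.29e-05) and LPXN (-1.66, SE 0.25, adjusted p = 0.00063), both paxillin relatives. Several scaffold genes in U87 had a limma adjusted p under 0.05 (down to 0.000693), all lower, and missed only the size asked of a call.

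Among 12 membrane partners, all tested, CD82, a tetraspanin that associates with integrins, was the gene called higher in both lines. It rose from 47.9, 41.0 and 40.1 TPM to 225, 117 and 150 TPM in U87 (1.86, SE 0.22, limma adjusted p = 0.00104) and from 23.4, 32.5 and 15.5 TPM to 369, 334 and 314 TPM in U118 (3.83, SE 0.27, adjusted p = 7.08e-06). The syndecan gene SDC1 fell in U87 (-1.02, SE 0.12, adjusted p = 0.00094) and SDC4 in U118 (-1.35, SE 0.33, adjusted p = 0.00814), and no other partner was called in these fits (medians -0.03 and -0.22). Both syndecan calls were lost with median-ratio scaling (-0.74 and -0.84), and that of SDC1 also without mitochondrially encoded genes and with any of 4 libraries left out. Of 12 genes of integrin trafficking, 9 were tested in each line, with 0 called in U87 by limma (4 at an unadjusted p under 0.05, median -0.21) and 1 higher and 2 lower in U118 (median -0.51). Some of these genes in U87 had a limma adjusted p under 0.05 (down to 0.000335), all lower, and missed only the size asked of a call. RAB4A, which acts in the rapid return of receptors to the surface, was listed at 0 in the U118 control libraries and measured 10.8, 6.10 and 5.57 TPM in U118 aggregation cells, against 2.77 to 3.53 TPM in U87. RAB21 (-1.70, SE 0.26, adjusted p = 0.000822) and ARF6 (-1.53, SE 0.19, adjusted p = 0.000261) fell in U118.

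**Figure D4:**
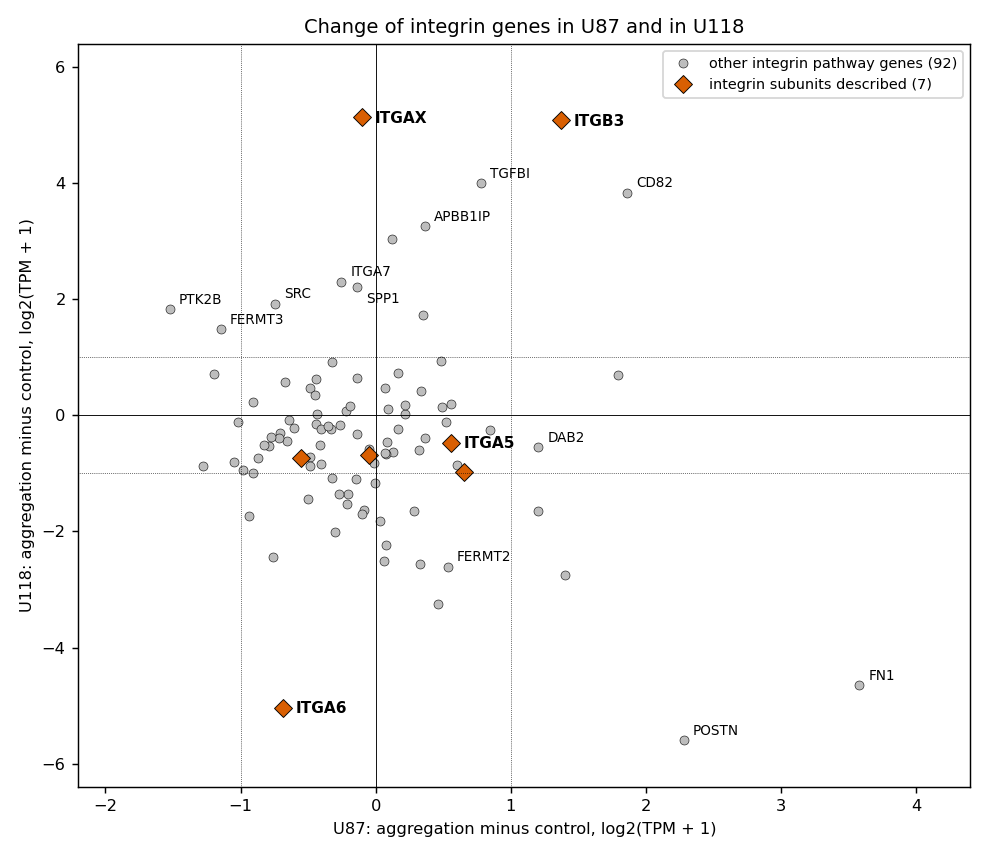
Log2 fold change of aggregation against control cells in U87 (horizontal) and U118 (vertical), on the log2(TPM + 1) scale, for 92 pathway genes and 7 of the integrin subunits tested in both lines, with dotted lines at a change of 1 in either direction. ITGB3 and CD82 lie at the upper right, and FN1 and POSTN at the lower right.

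The genes most like ITGB3 and ITGA6 were looked up by Pearson correlation over the 12 libraries, after each line was centred on its own mean. This is a description, since the points share 2 lines and the large U118 step. For ITGB3 the 5 nearest were RIMS3 (r = 0.996), ADGRG1, PTGFRN, CCL3 and PAMR1 (r = 0.994). RIMS3 averaged 12.4 and 31.4 TPM in the U87 groups and 0.0881 and 18.6 TPM in the U118 groups. For ITGA6, the nearest included SLITRK5 (r = 0.998), DNAJC15, ZFP36L2 and NEXN-AS1 (r = 0.995), and ZFP36L2 averaged 15.7 and 12.1 TPM in the U87 groups and 76.9 and 9.24 TPM in the U118 groups.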

How the data were processed

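mRNA libraries of U87 and U118 control and aggregation cells (3 libraries in each of 4 groups) were analysed from the tables deposited by the authors, 1 for each line, which hold TPM values, which are scaled by transcript length and library total, for 58174 Ensembl identifiers. The submitters' processing notes name FastQC 0.11.2, Trimmomatic 0.36, HISAT2 2.0, bedtools 2.26.0 and GRCh38, without their roles. The counting step, its strand setting and the annotation are not given in the sources used here. TPM keeps no read counts, so depth is unknown and no interval or floor from counting could be given. All 12 columns were mapped by their names.

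Groups were taken from the sample labels. The 10 subunits, the 7 pathway lists and the 6 marker lists were chosen with earlier results of these data known. Each line was fitted separately on the log2(TPM + 1) scale with limma 3.58.1 under R 4.3.3, using lmFit and the trend option of eBayes, for genes that reached 1 TPM in 3 or more of its 6 libraries. P-values are two-sided and were adjusted by Benjamini-Hochberg over all genes tested, and a call required an adjusted p under 0.05 together with a change of 1 or more on the log2 scale. Differences between the lines were tested by the interaction term over all 12 libraries, for genes that reached 1 TPM in 3 or more of the 12. The 2 lines come from separately deposited tables. The fit code was also run on simulated data with independent noise, and no result here rests on that run. TPM was also summarised as mean ± SD with pandas 2.3.3.

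Named genes were all 10 subunits, ITGA2, ITGA3, TLN1, FERMT2, PTK2, FN1 and VTN, up to 2 called genes with the largest rise and up to 2 with the largest fall in each list and line whose groups do not overlap, and the 5 genes most like ITGB3 and ITGA6, with some items not reported here. Neighbouring and overlapping genes, the marker genes, FBN1, EDIL3 and ITGAE were named after their values were seen. The lists of genes that changed with the processing do not cover FBN1, EDIL3 and ITGAE. Gene positions are from GENCODE (GRCh38) and start regions from RefSeq (GRCh38.p14). The marker lists not described with the results gave, at 1 TPM or more in all 3 libraries, 1 of 6 endothelial genes in every group, 0 to 2 of 6 epithelial genes and 4 or 5 of 8 glioma line genes. Alternatives were a pseudocount of 0.1, no filter, median-ratio scaling, a minimum mean of 10 TPM, leaving out mitochondrially encoded genes, a replicate block, eBayes without trend, calls by adjusted p alone, and the omission of single libraries.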

Additional observations from a re-analysis of the deposited data

Results flagged for a closer look

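Of 33 pathway genes named by the stated rule, 24 changed differently in the lines by the interaction term of the limma fit. Their adjusted p ran from 7.62e-09 (POSTN) to 0.0353 (SDC4). Most of the 33 were named for a large called change in a line, which favours such a difference, and the count over all pathway genes tested was 44 of 101, beside 30.5% of all genes tested. The pathway lists themselves were drawn up with earlier results of these data known. The values here are the U118 change minus the U87 change on the log2(TPM + 1) scale. Of the subunits, the difference was 4.20 for ITGAD, 2.56 for ITGA7, -2.31 for ITGA10 and -1.54 for ITGA11. Of the ligands, it was -8.22 for FN1, -7.87 for POSTN, 3.23 for TGFBI and 2.35 for SPP1. Of the tail-binding regulators, it was -3.14 for FERMT2, 2.89 for APBB1IP, 2.63 for FERMT3, -1.75 for DAB2 and -1.16 for FERMT1. Of the scaffold genes, it was -1.94 for LPXN and -1.71 for TGFB1I1. Of the kinases and adaptors, it was 3.36 for PTK2B, 2.67 for SRC, -2.57 for CAV1 and 1.78 for ELMO1. Of the membrane partners it was 1.98 for CD82 and -1.08 for SDC4, and of the trafficking genes 2.92 for RAB4A, -1.60 for RAB21 and -1.31 for ARF6. APBB1IP and RAB4A were listed at 0 in all 3 U118 control libraries, so their values depend on the pseudocount. So does that of POSTN, at most 0.155 TPM in U118 aggregation and at most 0.917 TPM in U87 control cells. ELMO1 did not pass the filter in U118, at most 0.113 TPM in control and 0.763 TPM in aggregation cells. ITGAD and ITGA11 did not pass in U87, at most 0.164 and 0.0267 TPM. For ELMO1, ITGAD and ITGA11 the difference thus rests largely on the change of the other line.

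ITGA5 was higher in every U87 aggregation library than in the U87 controls and lower in every U118 aggregation library than in the U118 controls, where its log2 fold change was -0.47. This opposite direction was not tested, since ITGA5 is among the genes chosen on these contrasts, and with median-ratio scaling the U118 value turned to 0.05.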

How the results depend on the processing

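TPM values of a library sum to a fixed total, so a gene that takes a larger share lowers all others, and the scaling moved more results than any other setting tried. Of the pathway genes, no fold threshold gave 17 called higher and 30 lower in U87. Median-ratio scaling gave 2 lower in U87 and 20 higher in U118. A mean of at least 10 TPM, which tests fewer genes, gave 6 higher and 17 lower in U118 and 28 differing between the lines. Leaving out each library in turn gave 7 to 8 higher and 6 to 8 lower in U87, 12 to 13 higher and 25 to 30 lower in U118, and 40 to 45 differing between the lines.

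Over all genes tested, 419 were called higher and 1078 lower in U87, and 1341 and 4134 in U118. Median-ratio scaling gave 689 and 528, and 2258 and 2113. A mean of at least 10 TPM gave 175 and 630, and 536 and 2152.

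With median-ratio scaling, log2 fold changes changed sign in U87 for ARF6 (0.056), FERMT1 (0.025), ITGA7 (0.022), RAB21 (0.12), SDC4 (0.0058) and SPP1 (0.14), and in U118 for ITGA5 (0.049), ITGA2 (0.085) and SDC1 (0.40). Without mitochondrially encoded genes they changed sign for RAB21 in U87 (0.01) and SDC1 in U118 (0.085). With a library left out, U87 CAV1 ranged from -0.12 to 0.21, RAB21 from -0.28 to 0.10 and SPP1 from -0.38 to 0.10. None of these was called in that line. With median-ratio scaling the U87 calls of CCN1 (-0.77), ELMO1 (-0.91), FERMT3 (-0.89) and SDC1 (-0.74) and the U118 calls of FERMT1 (-0.95), PTK2 (-0.57) and SDC4 (-0.84) were lost as their size fell under 1, while TGFBI in U87 (1.05) and TLN1 in U118 (1.46) were gained. Without mitochondrially encoded genes CCN1 and SDC1 in U87 and PTK2 in U118 lost their calls and TLN1 in U118 gained one (1.14). With single libraries left out, CCN1 (without U87 aggregation replicate 2, -0.999), SDC1 (without U87 control replicate 1 or 2 or aggregation replicate 1 or 3, down to -0.96) and PTK2 (without U118 aggregation replicate 3, -0.99) lost theirs, and YES1 in U87 (without control replicate 1, -1.20), JAM3 in U118 (without aggregation replicate 1, -1.22) and TLN1 in U118 (without control replicate 2, 1.002) gained one.

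A replicate block gave 7 higher and 7 lower pathway genes in U87, 12 and 26 in U118, and 44 differing between the lines, the same counts as without it. Deviations from the group means were correlated between same-numbered libraries at 0.011, -0.067 and -0.040 in U87. The same-numbered values of U118 were 0.139, 0.051 and 0.095. Differently numbered pairs of U118 gave -0.104, -0.108, -0.024, -0.021, -0.085 and 0.040. Those of U87 gave 0.045, -0.058, -0.008, 0.077, -0.002 and 0.041. With 3 libraries in a group, these values cannot decide whether same-numbered libraries share more than a number.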
